A study of Mus musculus with 15 samples.

Results

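Prkcd, Tcf7l2, Lef1, Calb2, Slc17a6, Ramp3 and Ntng1 are 7 genes with high expression in neurons of the mouse thalamus, the deep forebrain structure that relays sensory and motor signals to the cortex. They were picked by symbol, with their earlier values in these libraries known, from the 56748 gene identifiers of the count table, and all 7 were among the 22998 genes that passed the filter on low counts. All 7 were highest in the same library, the second sham replicate (sham 2), so their differences are given as a description: fitted values and calls stand beside the share of all tested genes called, and nothing is read from them. The libraries are bulk, total RNA libraries of cortex from wild-type C57BL/6J mice, killed 3 hours after a single session of repetitive magnetic stimulation. Intermittent theta-burst stimulation (iTBS) was given to 5 animals, continuous theta-burst stimulation (cTBS) to 5 and sham stimulation to 5, and each library is 1 animal. The tissue is labelled somatosensory cortex in the sample titles and sensorimotor cortex in the series design, and no further allele or agent is labelled.

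Thalamic relay neurons are glutamatergic cells that load their vesicles mainly through VGLUT2, the product of Slc17a6, whereas most cortical excitatory neurons rely on VGLUT1, the product of Slc17a7. Their identity depends on transcription factors such as Gbx2, Lhx2, Lhx9, Shox2 and Tcf7l2, and their axons, but not their cell bodies, lie in the cortex. None of the 7 genes is exclusive to the thalamus. Calb2 also marks cortical interneurons that often contain VIP, Tcf7l2 is made by newly formed oligodendrocytes, and Lef1 is made by endothelial cells of the blood-brain barrier.

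Tcf7l2 and Lef1 encode TCF/LEF transcription factors, whose core DNA motif is CTTTGA, and GGGCGG is the GC box of many promoters. The sequences of the 250 bases before the first RefSeq start are shown for Prkcd and Tcf7l2, the members whose levels in sham 2 stood furthest above the other libraries. Capitals mark GC boxes and TCF/LEF cores on either strand, neighbouring matches may share bases, and no match of one motif overlapped one of the other.
Prkcd, chr14:30626209-30626458, minus strand, GRCm38.p6: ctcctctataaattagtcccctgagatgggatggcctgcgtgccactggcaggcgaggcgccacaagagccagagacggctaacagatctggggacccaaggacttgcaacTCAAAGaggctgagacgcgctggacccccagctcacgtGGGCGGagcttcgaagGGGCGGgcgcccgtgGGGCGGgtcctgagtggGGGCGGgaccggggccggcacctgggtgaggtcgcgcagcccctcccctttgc
Tcf7l2, chr19:55741560-55741809, plus strand, GRCm38.p6: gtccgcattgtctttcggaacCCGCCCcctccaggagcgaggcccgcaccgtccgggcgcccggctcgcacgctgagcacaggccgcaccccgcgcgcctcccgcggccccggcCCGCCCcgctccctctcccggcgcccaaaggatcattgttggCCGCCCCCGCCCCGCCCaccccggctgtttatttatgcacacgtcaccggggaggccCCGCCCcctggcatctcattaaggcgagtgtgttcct
The sequences are from RefSeq and not from the build of the count table, GRCm39. Of the 7 genes, 6 had an entry and Calb2 is named only. Prkcd held 4 GC boxes and 1 TCF/LEF core, written on the other strand as TCAAAG, and Tcf7l2 held 6 GC boxes, some sharing bases, and no TCF/LEF core. The GC box was present in 6 of 6 matched members, against 33.0% of 27025 genes, and the TCF/LEF core in 1 of 6, against 14.1%. The members' windows were 53.2% (Slc17a6) to 72.8% (Tcf7l2) G and C. These matches describe letters in a window and not sites of binding.

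Total counts per library ran from 15385070 (iTBS 3) to 47807723 (sham 4). The 7 genes together had 1254 counts in iTBS 3 and 7345 in sham 2, the lowest and the highest of the 15 libraries, and the smallest single count was 61, for Prkcd in iTBS 3. Levels are given in CPM, the usual depth-scaled unit for counts, here taken over the tested genes after TMM scaling, with group means ± SD over 5 libraries. In bulk tissue, fewer cells of a type and less RNA per cell cannot be told apart, and the same holds for more cells and more RNA.

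Prkcd encodes protein kinase C delta, a kinase activated by diacylglycerol without calcium and a widely used label of thalamic relay neurons. Its levels were 5.86, 5.84, 3.86, 6.27 and 4.44 CPM in iTBS libraries 1 to 5, 14.7, 6.73, 5.89, 6.28 and 7.03 CPM in cTBS libraries 1 to 5, and 6.04, 65.1, 5.67, 4.46 and 5.91 CPM in sham libraries 1 to 5. Sham 2 was 11 times the median of the other 14 libraries and 4.44 times the next library, cTBS 1, and the 3 groups overlapped. Group means were 5.25 ± 1.04 CPM in iTBS, 8.12 ± 3.68 CPM in cTBS and 17.4 ± 26.6 CPM in sham. Without sham 2 the sham mean was 5.52 ± 0.725 CPM (n = 4), between the iTBS and cTBS means.

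Tcf7l2 encodes a transcription factor of the Wnt pathway that partners beta-catenin and is needed for thalamic and habenular development. Its levels were 9.20, 11.1, 9.93, 10.1 and 9.35 CPM in iTBS libraries 1 to 5, 11.3, 11.7, 8.30, 9.41 and 12.6 CPM in cTBS libraries 1 to 5, and 9.71, 47.6, 10.8, 9.96 and 10.1 CPM in sham libraries 1 to 5. The other 14 libraries kept within a narrow band, and sham 2 was 4.75 times their median and 3.77 times cTBS 5, the next. The groups overlapped, with means of 9.94 ± 0.769 CPM in iTBS, 10.7 ± 1.77 CPM in cTBS and 17.6 ± 16.8 CPM in sham, or 10.1 ± 0.452 CPM in sham without sham 2 (n = 4).

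Lef1 encodes a relative of Tcf7l2 that binds the same motif and, in the thalamus, is made by relay neurons. Its levels were 4.64, 5.36, 5.50, 5.58 and 4.98 CPM in iTBS libraries 1 to 5, 3.95, 3.72, 4.85, 4.81 and 5.13 CPM in cTBS libraries 1 to 5, and 6.30, 12.96, 5.62, 4.68 and 4.94 CPM in sham libraries 1 to 5. Sham 2 was 2.61 times the median of the others and 2.06 times sham 1, and cTBS 1 and cTBS 2, above the other cTBS libraries for some other members, were the lowest of all 15 for Lef1. Means were 5.21 ± 0.396 CPM in iTBS, 4.49 ± 0.617 CPM in cTBS and 6.90 ± 3.45 CPM in sham, or 5.38 ± 0.725 CPM in sham without sham 2 (n = 4), and the groups overlapped.

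Calb2 encodes calretinin, a calcium-binding protein of midline thalamic neurons and of a class of cortical interneurons. Its levels were 4.72, 4.88, 4.11, 4.48 and 6.48 CPM in iTBS libraries 1 to 5, 7.76, 15.02, 6.98, 8.09 and 7.11 CPM in cTBS libraries 1 to 5, and 6.08, 25.7, 4.42, 7.72 and 8.09 CPM in sham libraries 1 to 5. Sham 2 was 3.82 times the median of the others and 1.71 times cTBS 2, the next. Every iTBS library lay below every cTBS library, while sham libraries spanned both groups. Means were 4.94 ± 0.911 CPM in iTBS, 8.99 ± 3.40 CPM in cTBS and 10.4 ± 8.67 CPM in sham, or 6.58 ± 1.68 CPM in sham without sham 2 (n = 4).

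Slc17a6 encodes the vesicular glutamate transporter VGLUT2. Its levels were 24.6, 22.5, 26.2, 26.5 and 30.0 CPM in iTBS libraries 1 to 5, 29.9, 40.0, 29.6, 36.1 and 25.7 CPM in cTBS libraries 1 to 5, and 24.4, 69.0, 25.2, 32.2 and 30.4 CPM in sham libraries 1 to 5. Sham 2 was 2.46 times the median of the others and 1.73 times cTBS 2, and the groups overlapped. Means were 26.0 ± 2.75 CPM in iTBS, 32.2 ± 5.70 CPM in cTBS and 36.3 ± 18.6 CPM in sham, or 28.1 ± 3.83 CPM in sham without sham 2 (n = 4). The cortical transporter gene Slc17a7 stood the other way in sham 2, at 859 CPM against a median of 1190 CPM and a range of 994 to 1440 CPM in the other 14 libraries.

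Ramp3 encodes a receptor activity-modifying protein, which pairs with the calcitonin receptor or its relative Calcrl to form amylin or adrenomedullin receptors. Its levels were 7.30, 4.61, 7.97, 5.68 and 5.07 CPM in iTBS libraries 1 to 5, 7.45, 5.78, 8.69, 7.75 and 6.13 CPM in cTBS libraries 1 to 5, and 5.94, 10.9, 5.31, 7.70 and 6.76 CPM in sham libraries 1 to 5. Sham 2 stood out least here, at 1.69 times the median of the others and 1.25 times cTBS 3, and the groups overlapped. Means were 6.13 ± 1.45 CPM in iTBS, 7.16 ± 1.2 CPM in cTBS and 7.32 ± 2.20 CPM in sham, or 6.43 ± 1.04 CPM in sham without sham 2 (n = 4).

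Ntng1 encodes netrin-G1, a membrane-anchored protein of thalamocortical axons that binds the ligand NGL-1, the product of Lrrc4c. Its levels were 19.5, 31.7, 21.8, 24.6 and 25.9 CPM in iTBS libraries 1 to 5, 26.8, 29.0, 27.7, 26.7 and 27.2 CPM in cTBS libraries 1 to 5, and 25.5, 52.8, 30.2, 24.6 and 28.4 CPM in sham libraries 1 to 5. Sham 2 was 1.97 times the median of the others and 1.67 times iTBS 2, and the cTBS libraries all fell inside the range of the iTBS libraries. Means were 24.7 ± 4.63 CPM in iTBS, 27.5 ± 0.937 CPM in cTBS and 32.3 ± 11.7 CPM in sham, or 27.2 ± 2.56 CPM in sham without sham 2 (n = 4).

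**Figure D1:**
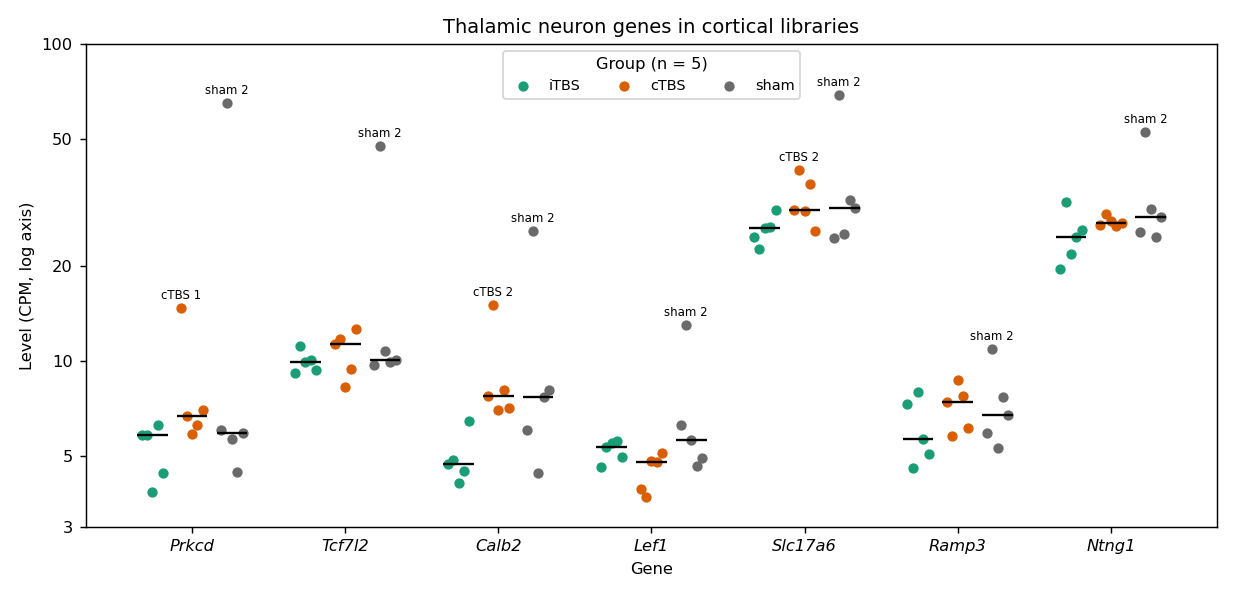
Level of each of the 7 thalamic neuron genes in CPM on a log axis, with 1 point per library and a bar at the median of each group of 5. Sham 2 is the top point for every gene, from 10.9 CPM for Ramp3 to 69.0 CPM for Slc17a6, and the other 4 sham libraries overlap the iTBS and cTBS libraries for each gene, although sham 1 and sham 3 lie above all of them for Lef1.

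Levels can be compared between genes only per length. Per kilobase of annotated exon, the median over the 14 libraries other than sham 2 was highest for Slc17a6 at 5.20 CPM (range 4.18 to 7.41), followed by Ramp3 at 4.67 (3.34 to 6.30), Calb2 at 3.86 (2.36 to 8.62) and Ntng1 at 3.25 (2.36 to 3.84), and these 4 ranges overlapped from each gene to the next. Tcf7l2 at 1.14 (0.946 to 1.44), Prkcd at 1.06 (0.696 to 2.64) and Lef1 at 0.564 (0.423 to 0.716) followed, with Ntng1 and Tcf7l2 the neighbours whose ranges were apart, and Prkcd overlapping both of its own. In sham 2 the order was Calb2 at 14.7, Slc17a6 at 12.8, Prkcd at 11.7, Ramp3 at 7.91, Ntng1 at 6.41, Tcf7l2 at 5.43 and Lef1 at 1.47 CPM per kilobase. Prkcd was in place 3 in sham 2 and in place 6 over the other libraries.

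Being highest in sham 2 was shared by 7 of 7 members and by 5.6% of the tested genes. A level in sham 2 of at least 1.5 times the next library was shared by 6 of 7 members and by 0.352% of the tested genes. Both counts describe how the genes were chosen as much as the library, so nothing is read from them. The mean log2 CPM over the 7 genes, here the thalamic level, was 5.04 in sham 2 and 3.14 (iTBS 3) to 3.56 (cTBS 1) in the other 14 libraries, and sham 2 lay 1.73 above their median. On the authors' variance-stabilized scale, each member was highest in sham 2 too: Prkcd stood at 11.13 there against 8.27 to 9.44 elsewhere, and Ramp3 at 9.09 against 8.38 to 8.93.

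As a set, the members shared little order once sham 2 was set aside, although some pairs did. Over 15 libraries, all 21 pairs of members had a positive Pearson r of their log2 CPM, from 0.27 to 0.93 with a median of 0.74. Over the 14 libraries without sham 2, 12 of 21 pairs were positive, from -0.73 to 0.84 with a median of 0.11. The highest was Calb2 with Slc17a6 at 0.84, and the lowest were Calb2 with Lef1 at -0.73 and Lef1 with Slc17a6 at -0.71. The pairs share libraries, depth and scaling, so these are descriptions. Second place went to cTBS 1 for Prkcd, cTBS 5 for Tcf7l2, cTBS 2 for Calb2 and Slc17a6, sham 1 for Lef1, cTBS 3 for Ramp3 and iTBS 2 for Ntng1.

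For the question of iTBS against sham, all 7 members had a lower fitted level in iTBS, as did 50.5% of the 22998 tested genes. The log2 fold changes ± SE were -1.71 ± 0.64 for Prkcd, -0.82 ± 0.37 for Tcf7l2, -0.40 ± 0.23 for Lef1, -1.07 ± 0.38 for Calb2, -0.48 ± 0.23 for Slc17a6, -0.27 ± 0.19 for Ramp3 and -0.38 ± 0.18 for Ntng1. Without sham 2 the same values were -0.06 ± 0.25 for Prkcd, -0.03 ± 0.11 for Tcf7l2, -0.05 ± 0.13 for Lef1, -0.42 ± 0.23 for Calb2, -0.12 ± 0.13 for Slc17a6, -0.08 ± 0.17 for Ramp3 and -0.13 ± 0.11 for Ntng1. Their median was -0.48, against -0.001 over all tested genes, and -0.08 without sham 2. After Benjamini-Hochberg adjustment, edgeR's quasi-likelihood test called 0 of 7 members, beside 0% of all tested genes. At an unadjusted p under 0.05 it took 4 members, Prkcd, Tcf7l2, Calb2 and Ntng1, beside 1.93% of all genes (443; 0.952% higher and 0.974% lower), and 0 members without sham 2, beside 1.89%. DESeq2 and limma called 0 genes of any kind after adjustment. No member's groups were apart (0 of 7, beside 0.452%).

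For cTBS against sham, which shares its 5 sham libraries with the first comparison, all 7 members again had a lower fitted level in cTBS, as did 53.5% of tested genes. The log2 fold changes ± SE were -1.10 ± 0.62 for Prkcd, -0.72 ± 0.37 for Tcf7l2, -0.62 ± 0.23 for Lef1, -0.21 ± 0.37 for Calb2, -0.17 ± 0.23 for Slc17a6, -0.04 ± 0.19 for Ramp3 and -0.23 ± 0.17 for Ntng1. Without sham 2 the direction turned for 6 of the 7: 0.56 ± 0.24 for Prkcd, 0.08 ± 0.11 for Tcf7l2, 0.44 ± 0.23 for Calb2, 0.20 ± 0.12 for Slc17a6, 0.15 ± 0.17 for Ramp3 and 0.02 ± 0.11 for Ntng1. Lef1 stayed lower in cTBS at -0.26 ± 0.13. The median over members was -0.23, against -0.023 over all tested genes, and 0.15 without sham 2. The edgeR test called 0 of 7 members after adjustment, beside 0% of all genes, and took 1 member, Lef1, at an unadjusted p under 0.05, beside 24.4% of all genes (5623; 6.8% higher and 17.6% lower). Without sham 4, Lef1 had a log2 fold change of -0.68 with an adjusted p of 0.0353 by edgeR, in a fit that called 5683 genes. DESeq2 called 132 genes and no member, with no adjusted p given for Prkcd or Tcf7l2 in any comparison, and limma called 0 genes. Without sham 2 the member at an unadjusted p under 0.05 was Prkcd, beside 22.4%. No member's groups were apart (0 of 7, beside 1.34%).

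For iTBS against cTBS, which uses no sham library in its means, 6 of 7 members had a lower fitted level in iTBS, as did 46.1% of tested genes. The log2 fold changes ± SE were -0.62 ± 0.64 for Prkcd, -0.10 ± 0.37 for Tcf7l2, 0.21 ± 0.23 for Lef1, -0.86 ± 0.38 for Calb2, -0.31 ± 0.23 for Slc17a6, -0.23 ± 0.19 for Ramp3 and -0.15 ± 0.17 for Ntng1, with a median of -0.23 against 0.027 over all tested genes. Sham 2 entered here only through the shared estimate of spread: without it the SE was 0.23 for Prkcd, 0.10 for Tcf7l2, 0.12 for Lef1, 0.22 for Calb2, 0.12 for Slc17a6, 0.16 for Ramp3 and 0.10 for Ntng1. The edgeR test called 0 of 7 members after adjustment, beside 0% of all genes. At an unadjusted p under 0.05 it took 1 member, Calb2, beside 30.6% of all genes (7047; 20% higher and 10.6% lower), and 3 members, Prkcd, Calb2 and Slc17a6, without sham 2, beside 30.2%. DESeq2 called 2618 genes and no member, and limma called 0 genes. Calb2 was the 1 member of 7 whose libraries did not overlap, beside 3.92% of all genes. Without cTBS 2 its log2 fold change was -0.60, and without cTBS 1 that of Prkcd was -0.32.

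**Figure D2:**
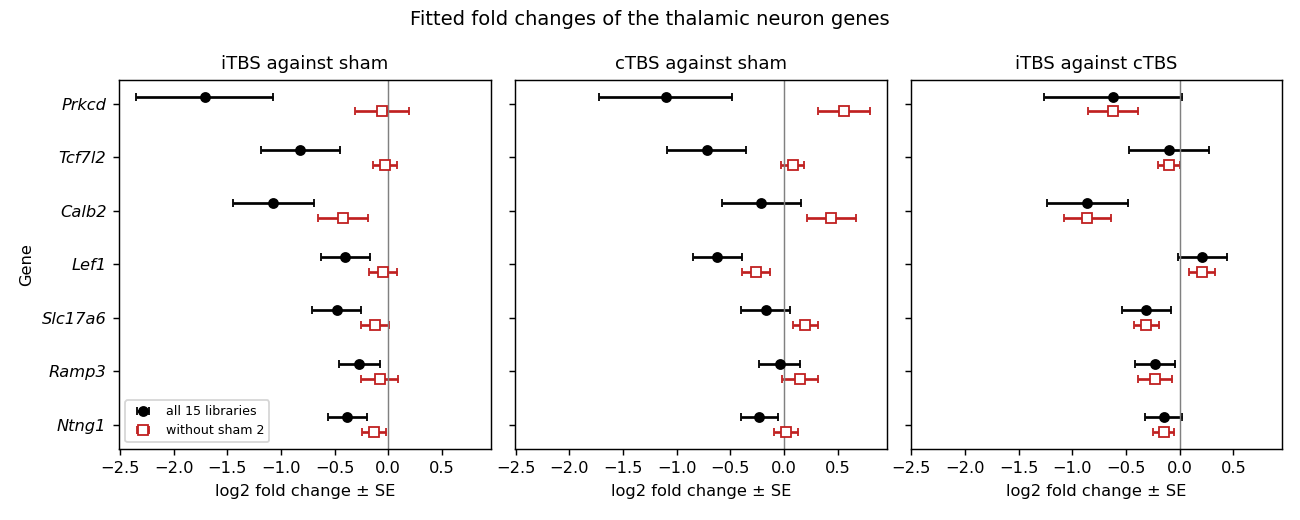
Fitted log2 fold change ± SE of each thalamic neuron gene in the 3 comparisons, with all 15 libraries (filled circles) and without sham 2 (open squares). Against sham, the open squares lie nearer to 0 for iTBS and on the other side of 0 for cTBS except for Lef1; in iTBS against cTBS the values stay and the SEs shrink.

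The libraries also differed in nuclear-retained long noncoding RNAs, a group that stays mostly in the cell nucleus. How much nuclear RNA each library held was not measured. Summed over the 11 members of that list, levels ran from 6140 to 16100 CPM in iTBS, 2790 to 7670 CPM in cTBS and 3920 to 16700 CPM in sham, with 10900 CPM in sham 2. Malat1, its best known member, was 5580 CPM in sham 2, inside the range of 1040 CPM (cTBS 4) to 9620 CPM (sham 3). Their part in the members' differences was not tested.

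A further list of 20 genes of thalamic relay neurons was examined beside the 7, of which 18 passed the filter on low counts and the transcription factor genes Gbx2 and Shox2 did not. This list, like the other gene lists below, was chosen with earlier results of these data known. Its counts are therefore a description, and nothing is read from them. Of the 20, 16 were highest in sham 2, and of the 18 tested it was 14, beside 5.6% of all tested genes. Over the 18, the median log2 CPM in sham 2 lay 1.14 above the median of the other libraries, beside 1.37 for the 7 members and 0.02 for all tested genes. The summed level of the 20 was 1250 to 1390 CPM in iTBS, 1220 to 1390 CPM in cTBS and 1210 to 1590 CPM in sham, with 1590 CPM in sham 2 and at most 1410 CPM in the other sham libraries. That sum is carried by Kcna2, Adarb1 and Rora, genes that the cortex also expresses: they averaged 530, 256 and 180 CPM over 15 libraries.

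The transcription factor genes of relay neurons did not all follow the same profile. Gbx2, a homeobox gene needed for the development of thalamic nuclei, stood at 1.86 CPM (48 counts) in sham 2 and between 0 and 0.498 CPM (cTBS 2) in the other 14. Shox2 stood at 8.28 CPM (214 counts) in sham 2 and at no more than 0.80 CPM (cTBS 1) elsewhere. Lhx9 was 6.42 CPM in sham 2, 21.5 times the median of the others, whose highest was 1.22 CPM (cTBS 5). These 3 were low but not all at 0 elsewhere, with up to 46 counts for Lhx9 and 21 for Gbx2 in cTBS 2 and 33 for Shox2 in cTBS 1. Lhx2, which cortical cells also express, went the other way, at 34.7 CPM in sham 2 against 35.3 to 60.8 CPM elsewhere, and Tcf7l2 was 8.30 to 12.6 CPM outside sham 2.

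Other genes of the list that were highest in sham 2 included Slitrk6, the gene of a neuronal transmembrane protein, with 8.63 CPM in sham 2 against at most 1.96 CPM elsewhere, Synpo2, an actin-binding protein gene, with 33.1 CPM against at most 11.9 CPM, and Plekhg1, with 69.8 CPM against at most 27.5 CPM. Rora, a nuclear receptor gene of relay neurons and of layer 4 cortex, was 235 CPM in sham 2 against at most 194 CPM. Lhx2, Cacna1g, Kcna2 and Cdh6 were the 4 of 20 that were not highest in sham 2. Among the other 14 libraries, cTBS 1 was highest for 6 of the 20 genes (Shox2, Plekhg1, Patj, Slitrk6, Amotl1 and Vipr2), sham 4 for 5 (Rora, Lhx2, Rgs16, Kcna2 and Adarb1), cTBS 2 for 3 (Gbx2, Tnnt1 and Zic1), cTBS 5 for 3 (Lhx9, Synpo2 and Zfhx3), and cTBS 4, iTBS 2 and iTBS 3 for 1 each. In the 3 comparisons edgeR called 0 of the 18 after adjustment, beside 0% of all genes. At an unadjusted p under 0.05 it took 2 of the 18, both lower, in iTBS against sham (1.93% of all genes), 1 lower in cTBS against sham (24.4%) and 1 higher in iTBS against cTBS (30.6%). Their median log2 fold change was -0.28 in iTBS against sham (0.05 without sham 2), -0.16 in cTBS against sham (0.17 without it) and -0.08 in iTBS against cTBS.

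**Figure D3:**
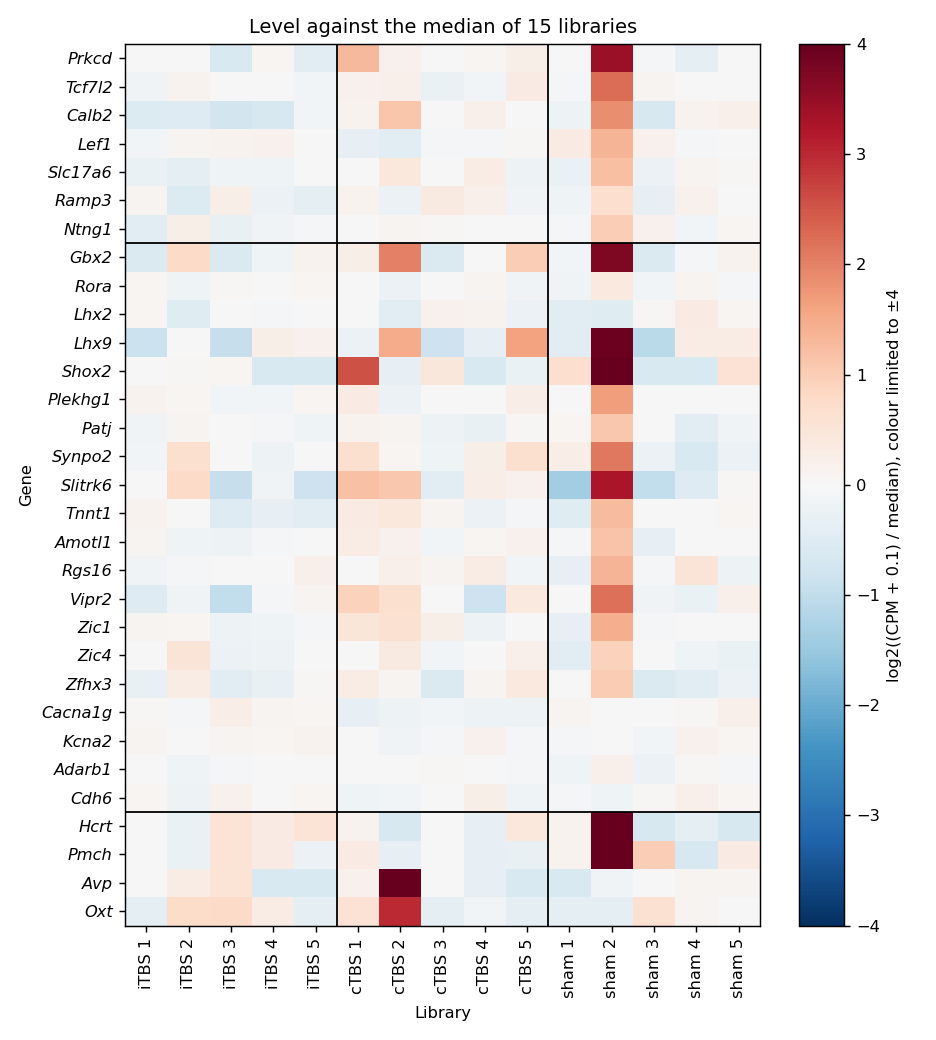
Level of 31 genes in 15 libraries as log2 of CPM plus 0.1 against each gene's median, with colour limited to 4 on either side. The top block holds the 7 thalamic neuron genes, the middle block 20 other thalamic relay genes and the bottom block 4 hypothalamic peptide genes; sham 2 is the darkest column for most genes of the upper blocks and for Hcrt and Pmch, and cTBS 2 for Avp and Oxt.

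Genes of structures next to the thalamus were measured in the same libraries. Hcrt and Pmch, which encode orexin and melanin-concentrating hormone of the lateral hypothalamus, were 2.75 CPM (71 counts) and 3.29 CPM (85 counts) in sham 2 and at most 0.128 and 0.208 CPM in the other libraries. Avp and Oxt, which encode vasopressin and oxytocin, were 3.48 and 0.948 CPM in cTBS 2, the library with the second highest Calb2 and Slc17a6, and 0.0387 and 0 CPM in sham 2. The 12 genes of a hypothalamic and midbrain list summed to 4.20 to 5.81 CPM in iTBS, 4.01 to 14.2 CPM in cTBS and 3.55 to 15.9 CPM in sham, with 15.9 CPM in sham 2 and at most 6.30 CPM in the other sham libraries. Of the 12, Hcrt, Pmch, Th, Nkx2-1, Gal and Foxa2 were highest in sham 2, Foxa2 with only 2 counts there. Avp, Oxt, Slc6a3 and Trh were highest in cTBS 2, Agrp in iTBS 4 and Pomc in sham 3. Of the 5 tested, 2 were highest in sham 2, beside 5.6% of all tested genes. Of 10 habenular genes, 5 were highest in sham 2, namely Gpr151, Pou4f1, Gng8, Chrnb4 and Chrna3, at 2.82, 1.55, 1.62, 1.59 and 3.21 CPM, and Nwd2, Lrrc55, Tac2, Chat and Slc5a7 were highest in cTBS libraries. Of the 8 habenular genes tested, 3 were highest in sham 2, beside 5.6% of all tested genes. The sum of 10 habenular genes was 107 to 132 CPM in iTBS, 112 to 138 CPM in cTBS and 104 to 140 CPM in sham, with the top in sham 2. Nwd2 and Lrrc55, at means of 68.2 and 36.8 CPM, make up most of that sum. In sham 2 they were 1.01 and 1.04 times the median of the other libraries. Of 8 genes of the thalamic reticular nucleus, 0 were highest in sham 2, and their median there was 0.12 above that of the others. The sums were 293 to 358 CPM in iTBS, 316 to 404 CPM in cTBS and 258 to 343 CPM in sham. Meis2, Sst, Esrrg and Pvalb, at means of 138, 86.9, 48.3 and 44.4 CPM, make up most of those sums. In sham 2, Ecel1, Isl1 and Six3 were 2.12, 2.68 and 1.8 times the median of the others. Meis2 and Esrrg were 1.14 and 1.04 times it, and Sst, Pvalb and Dlx1 0.729, 0.882 and 0.839 times. Isl1 is also on the striatal list, so the list does not measure the reticular nucleus alone. The part of these neighbouring tissues in the members' values was not tested.

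Choroid plexus genes were high in sham 2 but not in it alone, and the summed striatal genes there lay inside the range of the other libraries. Ttr, the transthyretin gene of choroid plexus, reached 232 CPM in the library cTBS 4, against 249 CPM in sham 5 and 234 CPM in sham 2. Of the members, Slc17a6 was in place 3 and Calb2 and Ramp3 in place 4 of the 15 libraries in cTBS 4, and Calb2 was in place 3 in sham 5. In cTBS 4, Prkcd was 6.28, Tcf7l2 9.41, Lef1 4.81 and Ntng1 26.7 CPM. Their medians over the 14 libraries other than sham 2 were 5.9, 10, 4.96 and 26.8 CPM. In sham 5, these genes were 5.91, 10.1, 4.94 and 28.4 CPM. Slc17a6 and Ramp3 were 30.4 and 6.76 CPM in sham 5, against medians of 28.1 and 6.45 CPM. The 12 choroid plexus genes summed to 217 to 355 CPM in iTBS, 233 to 612 CPM in cTBS and 221 to 636 CPM in sham. Enpp2, at a mean of 253 CPM, makes up most of the lower sums. Of the 11 tested choroid plexus genes, 6 were highest in sham 2, beside 5.6% of all tested genes. The 14 striatal genes summed to 652 to 1570 CPM in iTBS, 673 to 1600 CPM in cTBS and 495 to 1280 CPM in sham, with the top of the sham range in sham 2, and 0 of 14 were highest there. With sham 2, sham 5 and cTBS 4 all left out, the members' median log2 fold changes were -0.07 in iTBS against sham and 0.19 in cTBS against sham, beside -0.08 and 0.15 without sham 2 alone. Sham 2 is absent from both of these fits, and the part of choroid plexus and striatum in the members' values was not tested.

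**Figure D4:**
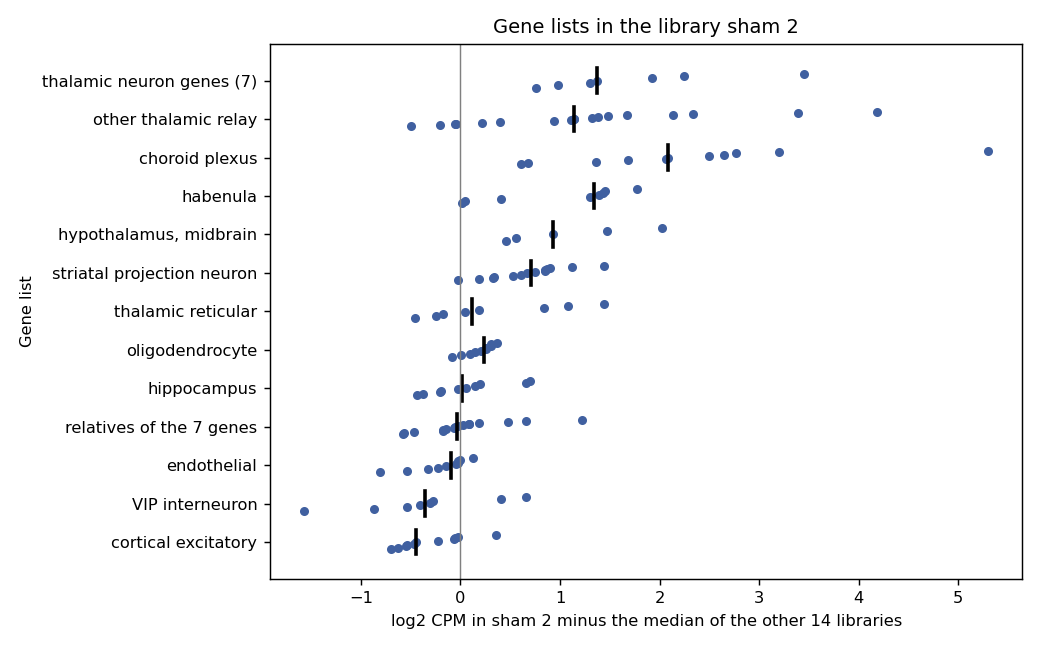
Log2 CPM in sham 2 minus the median of the other 14 libraries for each tested gene of the named lists, with 1 point per gene and a bar at the list's median. The 7 thalamic neuron genes have a median of 1.37 and the other thalamic relay genes 1.14; choroid plexus genes lie at 2.08 and cortical excitatory genes at -0.45.

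Marker lists of the cortical cell types that also make some of the 7 genes did not have their highest sum in sham 2. The 8 VIP interneuron genes, a list that goes with Calb2, summed to 179 to 317 CPM in iTBS, 199 to 327 CPM in cTBS and 171 to 345 CPM in sham, with the lowest sum in sham 2. Cck, at a mean of 178 CPM, makes up most of that sum, and the members went both ways: 1 of 8, Prox1, was highest in sham 2 at 33.0 CPM against a median of 20.9 CPM, while Vip was 24.1 CPM there against a median of 30.0 CPM. The 10 endothelial genes, a list that goes with Lef1, summed to 214 to 237 CPM in iTBS, 185 to 230 CPM in cTBS and 209 to 250 CPM in sham, with 210 CPM in sham 2. The 10 genes of the oligodendrocyte lineage, a list that goes with Tcf7l2, summed to 1770 to 2580 CPM in iTBS, 2080 to 3290 CPM in cTBS and 1980 to 2770 CPM in sham, with 2770 CPM in sham 2 and at most 2270 CPM in the other sham libraries, and 0 of 10 were highest there. The 11 genes of cortical excitatory layers summed to 2220 to 2690 CPM in iTBS, 2320 to 2710 CPM in cTBS and 1930 to 2920 CPM in sham, and sham 2 held the lowest sum of all 15 libraries.

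Close relatives of the 7 genes did not move with them as a family. Of 16 relatives, 3 were highest in sham 2: Prkch at 14.8 CPM against at most 11.5 CPM elsewhere and Prkcq at 12.8 CPM against at most 11 CPM, which encode other protein kinases C, and Slc17a8, the gene of VGLUT3, at 6.03 CPM against at most 5.87 CPM. Ntng2, which encodes netrin-G2, was 22.8 CPM in sham 2, below the range of 28.4 to 42.2 CPM in the others. Ramp2 was also below, at 4.84 CPM against 5.73 to 11 CPM. Tcf7, Tcf7l1 and Calb1 lay inside the range of the other libraries. The median relative lay -0.04 from the median of the other libraries. The 3 of 16 relatives highest in sham 2 stand beside 5.6% of all tested genes.

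Partners and targets of the 7 genes were taken as a further list of 18, of which 16 were tested. Of the tested 16, 2 were highest in sham 2, beside 5.6% of all tested genes: Rnf43 at 4.37 CPM and Tle1 at 47.6 CPM. Axin2, a general target of Wnt signalling through TCF/LEF factors, was 28.8 CPM in sham 2 against a median of 28.6 CPM. Ctnnb1, the gene of beta-catenin, was 204 CPM against a median of 196 CPM. Lrrc4c, the gene of the netrin-G1 ligand, was 184 CPM against a median of 206 CPM. Calcr, the calcitonin receptor gene, did not pass the filter: it was 1.26 CPM in cTBS 2, 0.812 CPM in sham 2 and had a median of 0 CPM in the others. Its relative Calcrl was 7.93 CPM in sham 2 against at most 8.08 CPM. After adjustment edgeR called 0 of the 16 in each comparison, beside 0% of all genes, and at an unadjusted p under 0.05 it took 0 of 16 in iTBS against sham (1.93% of all genes), 2 in cTBS against sham (24.4%) and 2 in iTBS against cTBS (30.6%).

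Genes whose profile was most like the thalamic level were ranked among 16876 genes by Pearson r over the 15 libraries. The first 8 were Amotl1 (r 0.931), Plekhg1 (0.916), Syt9 (0.909), Vangl1 (0.907), Zic1 (0.886), Pcolce2 (0.882), Ret (0.874) and Vav3 (0.865), and 3 of them, Amotl1, Plekhg1 and Zic1, were on the other list of relay genes. Spearman's rho was 0.636 for Amotl1 and 0.214 for Plekhg1. Over the 14 libraries without sham 2 the first 8 were Sumf1 (0.921), Ninj1 (0.913), Tmem35a (0.884), Klhdc8a (0.881), C1ql1 (0.880), Erlin2 (0.879), Txndc5 (0.860) and Hmgb3 (0.852). The 2 sets of 8 shared 0 genes and the second held 0 of the other relay genes. All genes in a library share its depth and scaling, so the values of r describe likeness in these libraries.

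Annotated genes overlap 5 of the 7, and the strand setting of the counting is not given in the sources used here. In an annotation of the earlier assembly, Tcf7l2 overlaps Ppnr, Lef1 overlaps Gm43352 and Gm42449, Slc17a6 overlaps Gm45072, Ramp3 overlaps Gm11978, and Ntng1 overlaps Gm25681 and Gm12535. The largest count of any of these in any library was 21, for Ppnr in sham 2. Prkcd and Calb2 overlap no annotated gene.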

How the data were processed

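The authors deposited raw counts per Ensembl gene for 15 libraries and variance-stabilized values on a log2 scale. The submitters' processing notes name fastp, STAR, DESeq2 and the build GRCm39; for the counter, annotation release and strand setting, the sources used here give nothing. Gene names came from an annotation of an earlier assembly by identifier (52073 of 56748 matched). The 7 members and all gene lists were chosen with earlier results of these data known. Counts were fitted with edgeR 4.0.16 (R 4.3.3) by the quasi-likelihood test, with TMM scaling, all 15 libraries, a term per group, the default expression filter (22998 of 45315 genes with counts, 99.9% of counts) and Benjamini-Hochberg adjustment over all tested genes at 0.05. CPM was computed from the deposited counts, and log2 CPM with a prior count of 2. DESeq2 1.42.0 on the counts and limma 3.58.1 on the variance-stabilized values were alternatives. The named genes are the 7 members, up to 3 genes per list by mean CPM, and 8 most alike by r with and without sham 2; of the list genes taken by the rule, those that bear on the members are given, and other list genes were named after their values were seen. The edgeR script was tested on simulated data. The animals behind the replicates are separate, per the labels' design text. No 2 libraries were identical (0 pairs).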

Additional observations from a re-analysis of the deposited data

Results flagged for a closer look

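Outlying libraries were sought within groups of 5 libraries on log2 CPM, and the shares would differ on CPM. Of the 24 sets tested, 7 held 1 library whose gap to its nearest neighbour, as a share of the set's whole range, passed Dixon's 95% limit. Chance flags about 1 in 20 independent sets, but these sets are 7 genes and their own mean in the same libraries, so the number flagged is a description only. Sham 2 was the high library for Tcf7l2 (0.935), for the mean log2 CPM of the 7 genes (0.908), for Prkcd (0.887), for Slc17a6 (0.733) and for Ntng1 (0.733). In cTBS, the high library was cTBS 2 for Calb2 (0.809) and cTBS 1 for Prkcd (0.806). The genes were chosen with these values known, so the flags restate the values that picked them.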

How the results depend on the processing

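No gene passed the adjusted threshold in the 3 comparisons by edgeR (443, 5623 and 7047 genes at an unadjusted p under 0.05 in iTBS against sham, cTBS against sham and iTBS against cTBS). DESeq2 called 0 genes in iTBS against sham, 132 in cTBS against sham and 2618 in iTBS against cTBS, and gave no adjusted p for Prkcd or Tcf7l2; it called 0 members. Leaving out 1 library gave 0 to 0 genes in iTBS against sham, 0 to 5683 in cTBS against sham (5683 without sham 4, 1 without iTBS 1) and 0 to 4419 in iTBS against cTBS (4419 without iTBS 1, 3669 without sham 4, 3375 without cTBS 5); the cause was not tested. The members' median log2 fold change ran from -0.60 to -0.08 in iTBS against sham, from -0.47 to 0.15 in cTBS against sham and from -0.34 to -0.18 in iTBS against cTBS, and the upper ends against sham came without sham 2. Sham 2 lay 1.73 above the median thalamic level on log2 CPM and 1.25 on the variance-stabilized scale.

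Replicate numbers are not stated to mark a shared litter or day. Of 15 same-numbered pairs, 7 had deviations with r over 0.1, from -0.564 to 0.717. Differently numbered pairs were not set beside them, so these values cannot show whether the numbers pair the libraries. With the replicate number as a block, 5 genes were called in iTBS against cTBS (smallest adjusted p 0.0376), no member among them, and the members' medians were -0.38, -0.18 and -0.23. The block changed no other call.

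Of 504 recomputed member values, 482 moved by less than 1 SD, a limit that includes the spread from sham 2, and 22 by more; 21 of the 22 came from leaving out sham 2, alone (6), with sham 5 and cTBS 4 (9) or with cTBS 1 and cTBS 2 (6), and 1 from limma. With sham 2, cTBS 1 and cTBS 2 left out, a choice made after seeing the data, the medians were -0.08, 0.12 and -0.23. The smallest count of a member in a library was 61, and group values are limited by the spread between 5 animals.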
